A study of Mus musculus with 2 samples.

Results

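Transcripts of 79 homeobox genes that lie outside the Hox clusters were compared in cultured fibroblasts taken from mouse embryos (MEFs, which are primary mesenchymal cells) with and without the Lats2 kinase gene. The genes were taken by a rule on symbols, drawn up with earlier results of these data known, as every gene on the array whose symbol belongs to the Lhx, Isl, Dlx, Msx, Irx, sine oculis, Pax, Alx, Prrx, Pitx, Shox, Barx, Emx, En, Gbx, Nkx, Otx, Tlx, Meox, Evx or Cdx families. They were represented by 115 of the 41174 probes and are 79 of the 27745 gene names on the array. The RNA called KO came from LATS2-/- MEFs (LAT2-/- in some labels) and the RNA called WT from LATS2+/+ MEFs, all of strain C57BL/6J and untreated. The labels give neither the number or age of the embryos nor the number of cultures. Both RNAs were hybridised together on each of 2 arrays. The first array carried KO in the red dye Cy5 and WT in the green dye Cy3, and the other array the reverse.

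A homeobox is the stretch of a gene that encodes a homeodomain, a small DNA-binding fold of transcription factors. Many homeobox genes are switched on in restricted parts of the embryo, where they lay down limb, face, nerve, muscle and organ territories, and cultured fibroblasts retain part of the pattern of the site they came from. Such genes are classical targets of Polycomb repressive complex 2 (PRC2), which places the H3K27me3 mark on histones, often at CpG-rich promoters. The study concerns LATS2 and PRC2. Pax proteins are defined by a paired domain, and some of them lack a complete homeodomain.

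The pair of arrays was treated as a technical dye swap and counted as 1 replicate per genotype, since no separate cultures were labelled. No test of the genotypes was therefore possible, the differences have no replicate check, and the number of arrays limits the precision. Values are log2 ratios of KO over WT given for each array and as their mean, and levels are log2 intensities of a probe in arbitrary units. Over all probes above background the SD between arrays was 0.136 for a single array and 0.0963 for the mean. Lats2, the targeted gene, went against its label, with 3 of its 4 probes higher in the RNA labelled KO (mean ratios from -0.35 to 0.63). A probe outside a deleted part would not report the deletion, and the deleted part is not given in the sources used here. Directions below rest on the labels. All 11 fibroblast markers had signal well above background in 1 or both RNAs, and none of 4 endothelial and none of 4 skeletal muscle markers were. In RNA from whole cultures, fewer cells that express a gene and less RNA per cell cannot be told apart.

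To show the DNA at the start of the genes that differed most, promoters were read from RefSeq (GRCm38.p6), which listed 65 promoters for 54 of the 79 genes. Of the 10 genes described below as called, 6 had an entry, and Irx1 and Meox1 were not listed. Printed here are the 250 bases before the start of Lhx8, the gene with the highest ratio, of Msx1, the gene with the lowest, and of Isl1 and Six5. They run 5′ to 3′ on the strand of the gene, and capitals mark CpG dinucleotides.
Lhx8: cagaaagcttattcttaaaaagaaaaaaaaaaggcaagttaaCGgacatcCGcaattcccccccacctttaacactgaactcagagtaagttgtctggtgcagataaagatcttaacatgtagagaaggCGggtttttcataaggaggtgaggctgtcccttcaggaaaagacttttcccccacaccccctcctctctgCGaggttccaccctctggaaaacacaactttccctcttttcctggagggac
Msx1: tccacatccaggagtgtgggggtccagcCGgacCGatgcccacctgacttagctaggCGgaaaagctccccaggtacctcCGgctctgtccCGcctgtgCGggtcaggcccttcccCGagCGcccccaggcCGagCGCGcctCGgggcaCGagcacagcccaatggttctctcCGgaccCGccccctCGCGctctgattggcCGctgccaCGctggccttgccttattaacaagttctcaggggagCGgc
Isl1: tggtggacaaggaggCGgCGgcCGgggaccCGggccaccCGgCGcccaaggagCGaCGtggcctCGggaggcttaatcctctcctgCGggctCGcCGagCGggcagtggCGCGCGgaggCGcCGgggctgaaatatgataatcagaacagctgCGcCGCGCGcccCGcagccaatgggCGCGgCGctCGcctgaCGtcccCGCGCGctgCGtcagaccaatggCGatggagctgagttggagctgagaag
Six5: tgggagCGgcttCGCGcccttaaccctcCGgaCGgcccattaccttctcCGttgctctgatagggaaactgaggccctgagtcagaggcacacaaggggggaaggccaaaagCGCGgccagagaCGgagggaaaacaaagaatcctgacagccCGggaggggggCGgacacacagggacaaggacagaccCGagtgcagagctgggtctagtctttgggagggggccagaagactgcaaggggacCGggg

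The Lhx8 window (chr3:154330561-154330810, minus strand) held 4 CpG and 46% G and C. The windows of the 3 printed genes that were lower in the RNA labelled KO, a part of the 6 called lower, held more CpG. That of Msx1 (chr5:37824586-37824835, minus strand) held 20 CpG, that of Isl1 (chr13:116309689-116309938, minus strand) 33, and that of Six5 (chr7:19094294-19094543, plus strand) 13. The windows of Dlx1 and Lhx9, which lie inside the annotated extent of those genes and are not printed, held 22 and 4. The median was 15 CpG over the 65 promoters of the homeobox genes and 6 over all 32851 promoters. It was 16.5 over 36 promoters of genes above background and 13 over 29 promoters of the others. Lhx8 and Lhx9, with 4 CpG each, differed in opposite directions between the RNAs. The letters TAATTA, a core that many homeodomains bind (its own reverse complement), were in 4 of the 65 promoters and in 4.84% of all promoters. CATTCC, the core bound by TEAD factors, the DNA-binding partners of YAP and TAZ, was searched on both strands. It was in 3 of the 65 and in 12.6% of all, and neither motif was in the 6 windows of called genes. A match or its lack is a description of these letters in this window only.

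Of the 79 genes, 43 (54.4%) had signal well above background on both arrays in at least 1 RNA, against 57.6% of the 27579 genes with a usable value. Among them 38 were above background in both RNAs, 4 (Meox1, Isl2 and Pax6 among them) only in the RNA labelled KO, and 1 (Lhx2) only in the RNA labelled WT. The remaining 36 were not above background, and their ratios ran from -0.11 to 0.16. A gene was called when its brightest probe differed at least 2-fold on each array, both times in 1 direction, and was above background in the RNA in which it was higher. By this rule 4 genes were higher in the RNA labelled KO (Lhx8, Irx1 and Meox1 among them) and 6 were lower (Msx1, Lhx9, Six5, Dlx1 and Isl1 among them). That is 9.30% and 14.0% of the 43 genes above background, where 2.95% and 2.61% of all 15877 genes above background were called higher and lower. Over all genes measured, the shares were 5.06% and 7.59% of the 79, against 1.70% and 1.50%. With median centring of each array in place of loess, which removes an intensity-dependent dye effect, 3 were called higher and 1 lower, though no mean of the 10 genes moved by more than 0.062. For that setting the shares over all genes were not counted.

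**Figure D1:**
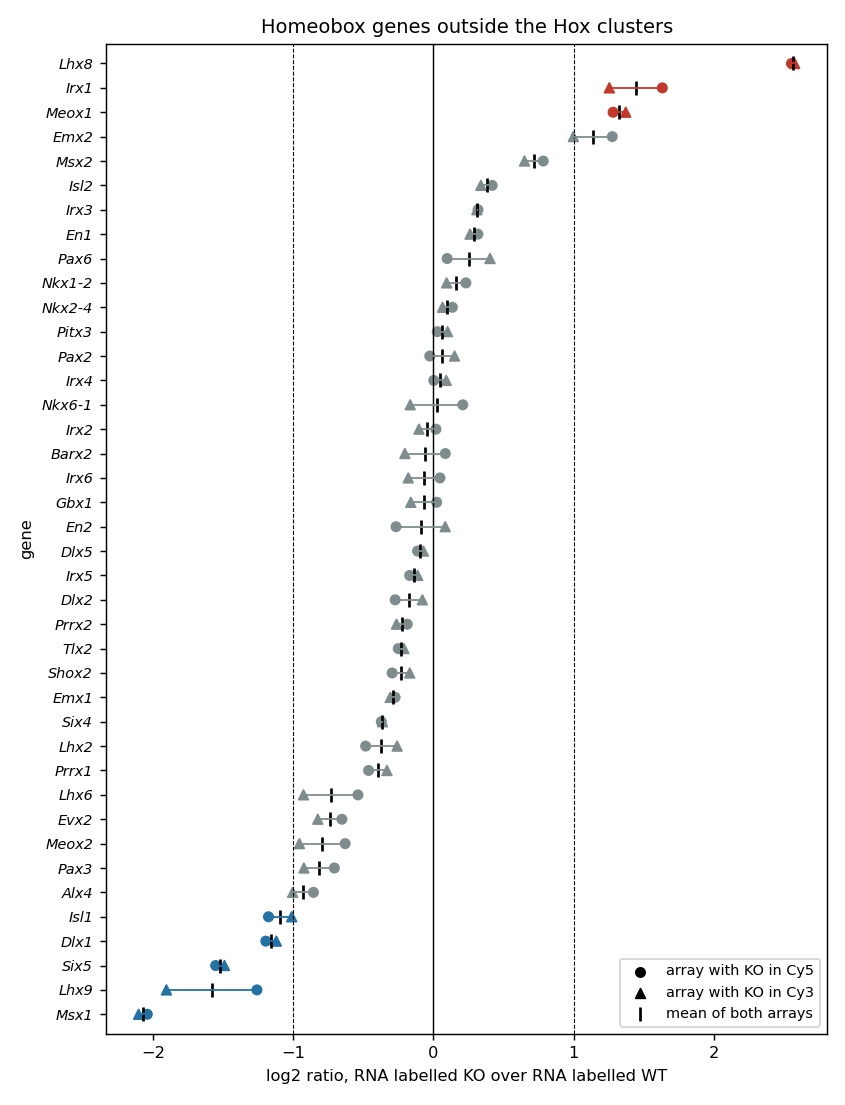
Log2 ratio of the RNA labelled KO over the RNA labelled WT (x axis) for 40 of the 43 homeobox genes above background (y axis), with circles for the array with KO in Cy5, triangles for the array with KO in Cy3 and bars for the mean. Of these, 3 called higher are red and 5 called lower are blue, and dashed lines mark 2-fold. Lhx8 at 2.57 and Msx1 at -2.07 lie at the ends.

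The ratios of the 43 genes spread more widely than those of genes in general. Their quartiles were -0.57 and 0.13, against -0.24 and 0.22 for all genes above background. In 17 of the 43 (39.5%) the mean ratio was at least 0.5 in size, against 22.6% of all genes above background. The median of the 43 was -0.09 (-0.17 on each array) and that of all genes above background 0.00, with 27 of the 43 below 0 and 16 above it. Over all 79 genes the median was -0.03, and on the array with KO in Cy5 alone it was 0.02, so it has no direction. Across the 43 genes, which are not independent replicates and share both RNAs, the correlation between arrays was 0.974 (Pearson's r) and 0.932 (Spearman's rho), and 36 had the same sign on both.

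LIM homeodomain factors carry a pair of zinc-binding LIM domains that dock cofactors, and act in motor and forebrain neurons, limb and gonad. This class held the widest contrast. Lhx8, which directs forebrain cholinergic neurons and tooth and palate formation, had log2 intensities of 11.37 and 11.38 in the RNA labelled KO and of 8.82 and 8.80 in the RNA labelled WT. The levels of the 2 RNAs were far apart on each array and close between arrays. The ratios were 2.56 and 2.58, with a mean of 2.57, or 5.93-fold (probe on chromosome 3, 154241706 to 154241765 of the mm8 build used by the files). A second probe, called too, gave 1.25. Its ratio was the highest of the 79. The printed window of Lhx8 held 4 CpG, as did that of Lhx9, which was lower in the RNA labelled KO. A link between CpG and ratio was not tested.

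Lhx9, a factor of early gonad and limb outgrowth, moved the other way. Its intensities were 8.48 and 8.05 in the RNA labelled KO and 9.74 and 9.96 in the RNA labelled WT. The ratios of -1.26 and -1.91 (mean -1.58, chromosome 1, 140644620 to 140644679) were the furthest apart between arrays among the called genes, with an SD of 0.457. A dimmer probe of Lhx9 was not above background in the RNA labelled KO and was at least 1.21-fold lower there. Such bounds are set on the mean of both arrays, so a single array can lie nearer to equal levels. Isl1, needed for motor neurons, hindlimb and the second heart field, had intensities of 6.56 and 6.87 against 7.73 and 7.88. Its ratios were -1.18 and -1.01, a mean of -1.09 (chromosome 13, 117419248 to 117419307). Isl2, its relative in motor neurons, was at 0.38 and above background only in the RNA labelled KO, at least 1.30-fold higher. Lhx6, a factor of cortical interneurons and of the jaw, was at -0.73, with a second probe, not above background, at -0.04. Lhx2 was above background only in the RNA labelled WT, and its level in the RNA labelled KO was lower by at least 1.25-fold. Lhx1, Lhx3, Lhx4 and Lhx5, genes mostly of neurons, kidney and pituitary, were not above background in either RNA.

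Msx and Dlx genes belong to the NK-like class that patterns limb bud, skull and face. Msx1, a BMP-responsive repressor that keeps mesenchymal cells undifferentiated, had intensities of 9.15 and 9.04 in the RNA labelled KO and of 11.19 and 11.15 in the RNA labelled WT. This was the lowest ratio of the 79 genes, at -2.04 and -2.10 (mean -2.07, 4.21-fold lower, chromosome 5, 38109315 to 38109374). Its second probe, also called, gave -1.71. Msx2, the relative with which Msx1 shares many functions, did not follow: intensities of 9.19 and 9.09 stood against 8.41 and 8.44, a mean ratio of 0.72 that was not called. Msx3 was not above background.

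Dlx genes come in adjacent pairs that share enhancers. Dlx1 had intensities of 7.88 and 7.92 in the RNA labelled KO and of 9.08 and 9.04 in the RNA labelled WT, with ratios of -1.20 and -1.12 (mean -1.16, chromosome 2, 71334281 to 71334340). Dlx2, its neighbour, was at -0.18, a difference within the pair that exceeded the SD between arrays. Dlx5 was at -0.09, and Dlx3, Dlx4 and Dlx6 were not above background.

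Irx genes encode TALE-class factors that lie in a pair of clusters of 3 genes and act in heart, limb and neural patterning. All 6 were above background, and 1 was called. Irx1 had intensities of 12.59 and 12.50 in the RNA labelled KO and of 10.95 and 11.24 in the RNA labelled WT. The ratios were 1.63 and 1.26 (mean 1.44, 2.72-fold, chromosome 13, 72424278 to 72424337), and a much dimmer probe gave 0.42. The genes of the same cluster stayed near 0, with Irx2 at -0.04 and Irx4 at 0.05. In the other cluster Irx3 was at 0.31, Irx5 at -0.14 and Irx6 at -0.07.

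The sine oculis family acts with Eya proteins, which bring phosphatase and coactivator activity, in muscle, kidney, ear and eye precursors. Six5, which lies next to the myotonic dystrophy kinase gene, had intensities of 8.04 and 8.15 against 9.59 and 9.65 in the RNA labelled WT. Its ratios of -1.55 and -1.49 (mean -1.52, 2.87-fold lower, chromosome 7, 18256610 to 18256669) were close on both arrays. Six4 was at -0.37, and Six2, Six3 and Six6 were not above background.

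Paired-like factors without a paired domain mark mesenchyme of limb and face. Pitx3 was at 0.06, and Pitx1, the hindlimb gene, was not above background. Alx4, with a role in skull and limb, had intensities of 11.10 and 11.00 in the RNA labelled KO and of 11.96 and 12.01 in the RNA labelled WT. Its ratios were -0.86, short of the threshold, and -1.01 (mean -0.93), with a dimmer probe at -0.14. Prrx1 and Prrx2, broad markers of limb and face mesenchyme, were well above background in both RNAs, at -0.40 and -0.23. The 6 probes of Prrx1 ran from -0.58 to 0.03. Shox2, of proximal limb and sinus node, was at -0.23.

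**Figure D2:**
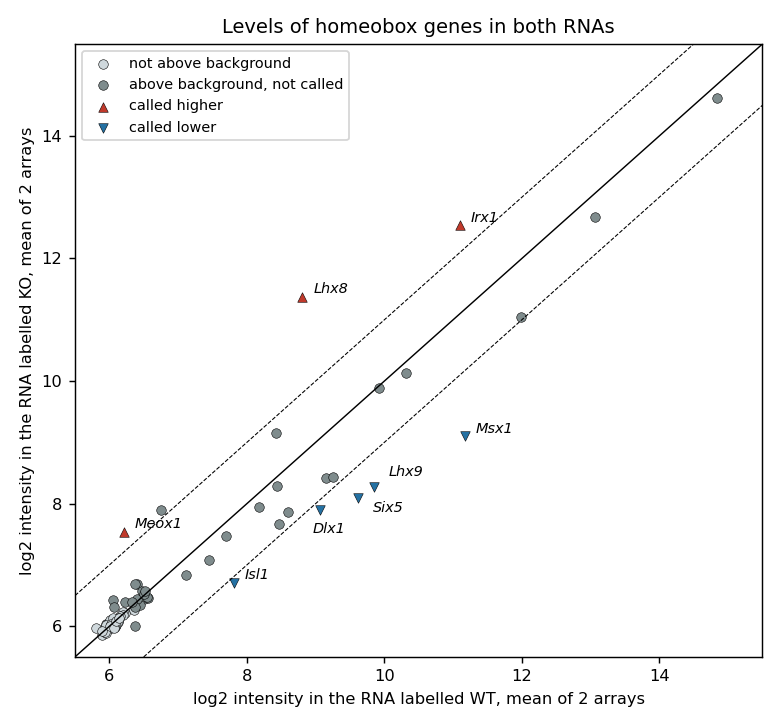
Mean log2 intensity over 2 arrays in the RNA labelled WT (x axis) and in the RNA labelled KO (y axis) for 76 of the 79 homeobox genes, 1 point each. The solid line marks equal levels and the dashed lines 2-fold. Irx1 and Lhx8 lie above the upper line at high intensity, Meox1 at low intensity, and the 36 genes not above background gather at the lower left.

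Meox genes act in the somites, the segments that give rise to axial skeleton and muscle, and the pair parted. Meox1 had intensities of 7.61 and 7.45 in the RNA labelled KO and of 6.33 and 6.08 in the RNA labelled WT, where it was not above background. Its ratios were 1.28 and 1.37 (mean 1.33, chromosome 11, 101693573 to 101693613). On the mean of both arrays this was at least 2.51-fold higher. A second probe, not above background in the RNA labelled WT, was at least 1.41-fold higher. Meox2 was at -0.79 (-0.63 and -0.96) and was not called, and its dimmer probe, not above background in the RNA labelled KO, was at least 1.24-fold lower.

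Head and brain regionalisers showed 1 gene near the threshold. Emx2, a gene of dorsal forebrain, urogenital system and scapula, had intensities of 8.04 and 7.74 against 6.76 and 6.74. Its ratios were 1.28 and 0.998, the second just short of 1, so it was not called at a mean of 1.14, and its other probe, not above background in the RNA labelled WT, was at least 1.28-fold higher. Emx1 was at -0.29, En1 and En2, of midbrain and limb, at 0.29 and -0.09, and Gbx1 at -0.07. Gbx2 and both Otx genes were not above background.

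Pax genes direct eye, neural crest, muscle, kidney and thyroid fates. Pax3, of neural crest and limb muscle precursors, was at -0.82 (-0.71 and -0.92), with intensities of 8.51 and 8.36 against 9.22 and 9.29, and a dimmer probe stood at -0.01. Pax6, the eye regulator, was above background only in the RNA labelled KO. Its arrays gave 0.10, inside the SD of a single array, and 0.40, so 1 array carried the mean of 0.25, and its other probes, not above background, gave 0.07 and 0.00. Pax2 was at 0.06. Pax1, Pax4, Pax5, Pax7, Pax8 and Pax9 were not above background.

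The remaining families held no called gene. Of 11 Nkx genes, 3 were above background, Nkx1-2 at 0.16, Nkx2-4 at 0.10 and Nkx6-1 at 0.02. Tlx2 was at -0.23 and Barx2 at -0.06, while Tlx1, Tlx3 and Barx1 were not above background. Evx2, at the end of the Hoxd cluster, was at -0.74 (-0.65 and -0.83), and Evx1 was not above background. The 3 Cdx genes, regulators of posterior identity and gut, were not above background either. Counted over all families, 33 of the 43 genes above background were not called, with ratios from -0.93 to 1.14. These are means of both arrays, set here against the SD of a single array, which is wider than that of a mean. By that measure 11 lay within the SD, 7 were higher beyond it and 15 lower beyond it.

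Probes of the same gene gave different sizes in some genes. Of 27 homeobox genes with several probes, 14 had more than 1 probe above background. Ratios of dim probes are pulled towards 0, so the other genes had little room to differ. Among the 14, 4 had probes with ratios more than 1 log2 unit apart, Lhx8 by 1.31 and Irx1 by 1.03 among them. In Lhx8 and Irx1, whose probes were above background in both RNAs, the brighter probe gave the larger ratio. Lhx9 is also among the 4, but its dimmer probe has only a bound, so the gap was not measured. With a gene's probes averaged, 2 genes were called higher and 5 lower, without Irx1, Meox1 and Lhx9. Where probes lie within a transcript was not analysed here.

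**Figure D3:**
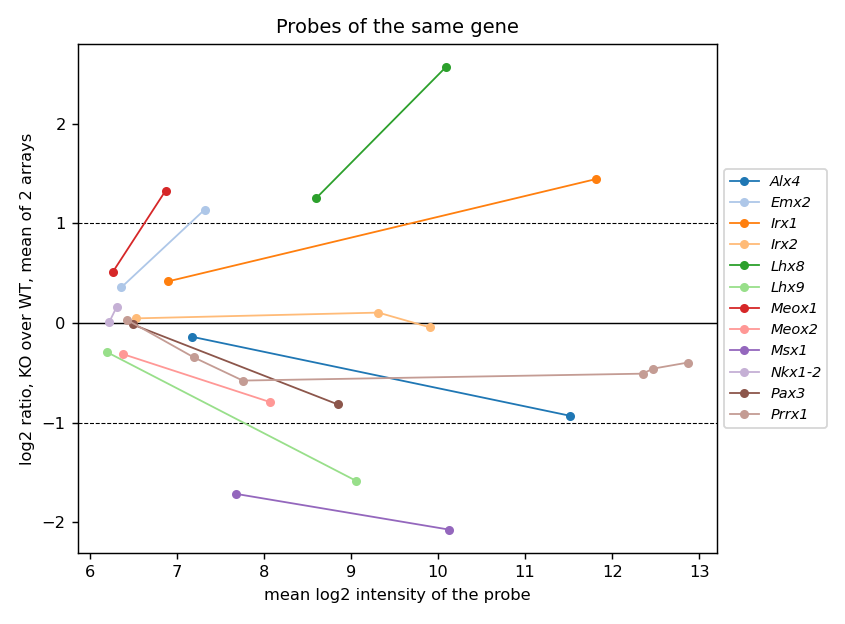
Mean log2 ratio (y axis) against mean log2 intensity (x axis) of each probe for 12 of the 14 homeobox genes with several probes above background. Lines join probes of the same gene, and dashed lines mark 2-fold. Lhx8 and Irx1 have probes more than 1 log2 unit apart. Points of probes above background in only 1 RNA, such as the dimmer Lhx9 probe, are drawn at the computed mean ratio and not at a bound.

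Partner proteins of these factors were examined as a list of 23 genes, the LIM cofactors, the Eya and Dach partners of the sine oculis factors, and the Groucho corepressors. Of 22 measured, 16 were above background, 1 was called higher and 3 lower, and the median of the 16 was -0.10. Among all 15877 genes above background, 2.95% were called higher and 2.61% lower. The list is short, and its counts were not tested against these shares. Eya4, a coactivator of sine oculis factors in ear and muscle, had intensities of 10.73 and 10.59 in the RNA labelled KO and of 7.54 and 7.22 in the RNA labelled WT. Its mean ratio of 3.28 (3.19 and 3.37) was above that of any of the 79 homeobox genes. Eya1 stood at 0.98 (1.03 and 0.92), just short of the threshold, and Eya3 at -0.03. Six4 and Six5 stood below 0, at -0.37 and -1.52. Among the LIM cofactors, Ssbp4, a partner of the Ldb adaptors, was lower at -1.15 (-1.23 and -1.07), and Ssbp2 stood at -0.96, Ssbp3 at -0.48, Lmo4 at -0.59, Ldb1 at -0.15 and Ldb2 at 0.50. Of the Groucho family, Tle6 was lower at -1.92 (-1.86 and -1.98) and Tle2 at -1.07 (-1.07 and -1.08), whereas Tle4 was at -0.70, Tle3 at 0.18, Tle1 at 0.43 and Aes at 0.31.

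**Figure D4:**
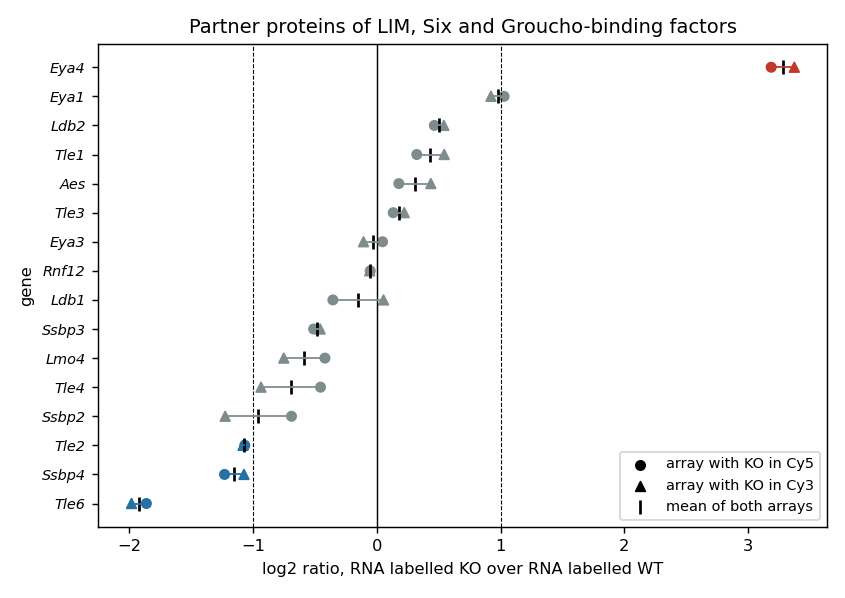
Log2 ratio of the RNA labelled KO over the RNA labelled WT (x axis) for the 16 partner genes above background (y axis), with circles and triangles for the arrays with KO in Cy5 and in Cy3 and bars for the mean. Eya4 at 3.28 is called higher (red), and Ssbp4, Tle2 and Tle6 are called lower (blue).

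Limb and body-position factors without a homeobox were listed too, and 13 of 21 were above background, with 0 called higher and 1 lower. Shares over all genes above background were 2.95% and 2.61%. Gli3, which limits hedgehog signalling in the limb bud, was at -1.47 (-1.32 and -1.63), with intensities of 9.77 and 9.68 against 11.09 and 11.31. Tbx4 and Tbx5, the hindlimb and forelimb selectors, Hand1, Hand2 and Shh were not above background, and Tbx3 was at 0.49, Grem1 at 0.57 and Twist1 at -0.36.

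Markers of other cell types were set beside these values. The 4 adipocyte markers had a summed log2 intensity of 11.42 and 11.29 in the RNA labelled KO and of 9.29 and 9.27 in the RNA labelled WT. Of these, 3 were above background and 1, Pparg at 2.83, was called higher, while Fabp4 was at 0.96, Cebpa at -0.70 and Adipoq was not above background. The 11 fibroblast markers had a median of -0.36, with none called and a summed log2 intensity of 16.89 and 16.93 against 17.06 and 17.28. No marker of cartilage (3 of 4 above background), nerve (3 of 5), epithelium (2 of 5) or blood (1 of 4) was called. The summed levels of these lists differed by less than 0.5 between the RNAs on each array. Markers not above background add a near-equal floor to both sums because of the offset. The sums for epithelium and blood therefore had little room to differ. The part of cell mixture in the homeobox values was not tested.

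The size of some ratios depended on the processing. With Feature Extraction's own ratio, which differs in background step, offset and dye normalisation together, Meox1 stood at 4.24 and Isl1 at -2.09, and Lhx8 and Msx1 at 2.77 and -2.23. Without background subtraction or offset, and with loess kept, Meox1 was at 1.66, Isl1 at -1.32, Lhx8 at 2.64 and Msx1 at -2.12. None of the 10 called genes changed sign under any of 9 ways of computing its ratio, the single arrays among them. On the single arrays the rule for calls fixed this beforehand. The other ways reuse the same spots, so they speak for the processing only.

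**Figure D5:**
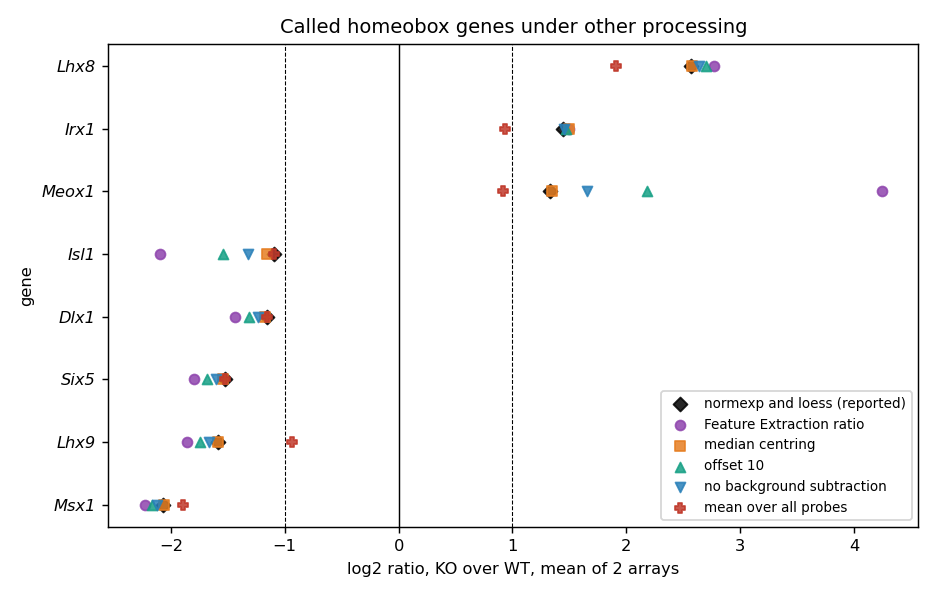
Mean log2 ratio (x axis) of 8 of the 10 called homeobox genes (y axis) as reported (diamonds) and under 5 other ways of processing, with dashed lines at 2-fold. Meox1 ranges up to 4.24 with Feature Extraction's own ratio, Irx1, Meox1 and Lhx9 fall short of 2-fold with probes averaged, and every value keeps its sign.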

How the data were processed

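Total RNA of LATS2-/- and LATS2+/+ MEFs was hybridised to 2 Agilent whole mouse genome arrays with exchanged dyes. Per the file headers, images were read with Agilent Feature Extraction (10.5.1.1 in the submitters' processing notes), and each spot's mean signal and median local background were deposited by the authors as intensity. The deposited scanner tables also hold Feature Extraction's log10 ratio of Cy5 over Cy3. The authors deposited a table of log2 ratios as well, which equals the log2 ratio of KO over WT from the processed signals with both arrays turned alike. Coordinates are those of the files (mm8).

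Intensities were corrected with normexp (offset 50) and loess within each array in limma 3.58.1 (R 4.3.3), which pulls ratios of dim probes towards 0. Control spots (1639 of 45018) and outlier-flagged spots (390 and 378) were left out, spots of a probe were averaged, and the swapped array was turned. Levels were taken per channel after Aquantile scaling between arrays. The brightest probe stood for a gene. Called genes had a ratio of at least 2-fold, the threshold of the study's methods, in 1 direction on both arrays, with the above-background flag in a share of at least 0.5 of the spots in the RNA in which they were higher. A gene not above background in 1 RNA has only a bound, set against the higher of its own signal and the lowest signal among probes above background. Bounds use the means of both arrays. Where the gene's own signal was the higher, the bound equals the mean ratio and carries the same spread between arrays. The rule for calls was tested on simulated data. Python 3.11.15, pandas 2.3.3 and matplotlib 3.10.9 were used.

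Named genes are the called members and the other members above background with their mean ratio, and the called genes of the other lists; further genes of those lists were named after their values were seen. Some members that meet this rule count in the totals but are not reported here by name. Members and lists were chosen with earlier results of these data known. Of 115 member probes, 94 had an accession matched in a RefSeq table (GRCm38.p6), and 0 had another symbol there. Both arrays lie on 1 slide and in 1 scan, so no batch could be separated. The alternatives were other ratios, background steps, offsets, thresholds, filters and probe rules, single arrays, and the methods' t-test.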

Additional observations from a re-analysis of the deposited data

How the results depend on the processing

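The counts of called homeobox genes depended on the processing, whereas no called gene changed direction, which the rule for calls fixes in part. The ratio of Feature Extraction called 7 genes higher, and 7 were so with the deposited table, each adding Emx2, Isl2 and Pax6, which are dim in the RNA labelled WT. The mean over all probes called 2 higher, and so did a filter for signal above background in both RNAs, which removes Meox1 among others by construction. Median centring called 1 gene lower (Msx1), and a 1.4-fold threshold 11. Shares over all genes were taken only for the reported processing, so counts under other settings describe the processing and are not set against the array. The methods' t-test called 3 higher and 5 lower at its unadjusted threshold of 0.05, without Irx1 and Lhx9, and 0 and 0 after Benjamini-Hochberg, on 1 degree of freedom, where hybridisation error is all the test can see. The single arrays called 4 to 5 higher and 6 to 7 lower, and by the rule each had to keep every gene called on both. The median of the homeobox genes above background, -0.09 as reported, was -0.188 with Feature Extraction's ratio, -0.194 with the deposited table, -0.0962 with median centring, -0.168 with offset 10, -0.141 without background subtraction, and -0.170 to -0.166 on single arrays. A smaller offset compresses dim genes less by construction, and for the other shifts the cause was not tested. Of 90 recomputed ratios of called genes, 53 stayed within the spread between arrays, 37 went beyond it, and 0 changed sign. Those of the single arrays could not change sign under the rule for calls. No paired analysis was possible because there is 1 replicate for each genotype. Signal over background limits the 36 genes that were not above it, for which a difference was not detectable here.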

Other observations

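Homeobox genes of other families, a list of 91 names with older symbols included, showed no called gene. Of 73 measured, 29 were above background, with a median of -0.20. Across all genes above background, 2.95% were called higher and 2.61% lower. Hhex, a regulator of liver and endothelial precursors, came closest, at -1.05 (-0.96 and -1.14). It was followed by Satb1, a chromatin organiser, at -0.88, Zfhx4 at -0.84, Lbx2 at -0.81 and Mkx, a tendon regulator, at -0.66. These genes were named after their values were seen.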
